A study of Mus musculus with 221 samples.

Results

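Translation initiation factors are the proteins that bring the small ribosomal subunit, the initiator tRNA and the start codon of an mRNA together. eIF4E binds the cap of the mRNA, eIF4G joins it to the ribosome through eIF3, eIF4A unwinds the leader, eIF1 and eIF1A govern scanning, eIF2 carries the initiator tRNA and eIF5 and eIF5B end the step. The mouse oocyte stops transcription before it matures, so the egg and the early embryo run on stored maternal mRNA, and cap binding by oocyte forms of eIF4E is one of the known controls of that store. At the 2-cell stage the embryonic genome is switched on and most maternal transcripts are degraded.

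The genes described here are those whose symbol begins with Eif and a digit from 1 to 6, without the Eif2ak kinases and without symbols that end in a pseudogene suffix. The rule used no measured value and gave 54 of the 55291 genes of the count table. They were measured in single early 2-cell mouse embryos whose fathers had been fed on high-fat food (HFD) or on low-fat food (LFD). There were 99 LFD embryos and a somewhat larger number of HFD embryos. All embryos had C57BL/6N nuclear DNA, were made by in vitro fertilization, and carried mitochondrial DNA of the Staudach (ST) line, since the oocytes came from superovulated C57BL/6N-mtST females. Each library was 1 whole embryo, copied and amplified from polyadenylated RNA by Smart-seq2.

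Per the study's methods the sperm was frozen and thawed, and came from 4 males per diet with different males on each date. The labels name neither sire nor date, so no test here could take account of the sire, and the p-values take each embryo as independent. Libraries held between 1937251 and 17246791 counts (median 5706066). Markers of the stage in the labels were detected: 12 of 12 transcripts typical of the 2-cell stage and 13 of 13 maternal oocyte transcripts had a median above 0. That bar is low and does not settle the stage. It was also met by 11 of 15 macrophage markers, 3 of 8 cumulus cell markers and 1 of 4 sperm mRNAs. Levels are given as CPM, counts in each 1000000 of the library. Because CPM is a share, fewer molecules of a transcript and more of all others could not be told apart. Summed macrophage markers (15 genes, none at 0 in all embryos) lay between 4.34 and 12.7 log2 CPM in HFD embryos and between 5.65 and 7.48 in LFD embryos. A run of 38 HFD embryos, numbered 31 to 70, was left out in one alternative, as were 13 libraries (7 HFD, 6 LFD) with fewer than 16000 genes.

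The symbol rule also took in 1 gene that is no initiation factor, Eif2c5, an argonaute name, which had a count in 21 embryos. It and Eif4ebp3 (16 embryos with a count) were too low to be tested, so 52 members entered the fit. A count was found in every embryo for 40 of the 54.

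Divided by exon length, the members covered a wide range. That length takes in all annotated exons of a gene, so the order depends in part on annotation. Eif5a, which assists peptide bond formation despite its name, stood highest with a median of 645 CPM per kilobase (lowest embryo 175, highest 1096). Eif1, which keeps the scanning ribosome from stopping at a wrong codon, followed with 379 (131 to 633). Next came Eif2b1 with 158, Eif4a3l1 with 133, Eif4g2 just below it, Eif4e1b with 110 and Eif4a1 with 108.5 CPM per kilobase. At the other end 22 members had a median below 10 CPM per kilobase. Among the members counted in every embryo the highest median was 279 times the lowest.

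**Figure D1:**
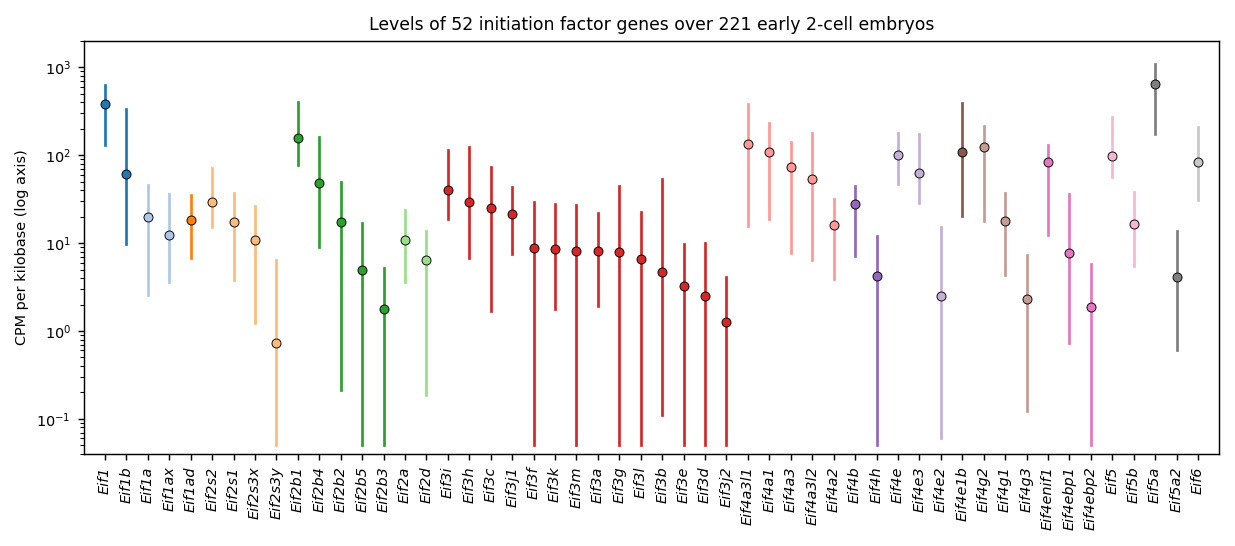
Level of each tested member in CPM per kilobase (log axis). Points are medians over all embryos and lines run from the lowest to the highest embryo, cut at the bottom edge where the lowest is 0. Colours mark roles. Eif5a and Eif1 stand highest, and single members lead in several complexes, such as Eif2b1 in eIF2B.

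Levels were uneven within complexes whose subunits act together. The 5 eIF2B subunits, which recharge eIF2 with GTP, had medians from 1.77 CPM per kilobase (Eif2b3) to 158 (Eif2b1). Eif2b3 was divided by 6520 bases and Eif2b1 by 2581. Without division, Eif2b3 had a median of 12.3 CPM in HFD and 10.4 in LFD embryos, against 408 and 402 for Eif2b1. The 14 eIF3 genes lay between 1.28 (Eif3j2) and 39.8 (Eif3i), below several single factors. Their summed median share of all members' level was 6.42%, against 15.7% for the 2 eIF1 genes and 23% for the 2 eIF5A genes. Per length, the summed level of all 54 members had a median of 2778 CPM per kilobase in HFD (2170 to 3273) and 2901 in LFD embryos (2100 to 3559), with wide overlap.

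To ask whether the father's diet changed initiation factor transcripts, each gene was tested between HFD and LFD embryos. The diets differed past the threshold at 3 of the 52 members (edgeR quasi-likelihood test, false discovery rate (FDR) under 0.05), a share of 5.77%, while 2.15% of the 14820 genes tested were called. Eif1 and Eif4e1b were lower and Eif4e3 was higher in HFD embryos. An unadjusted p under 0.05 was reached by 15 members (28.8%, 9 higher and 6 lower) and by 13.1% of all genes. Of the 52, 28 had a log2 fold change above 0 and 24 one below 0. Their median was 0.02, against 0.01 over all genes, and their extremes were -0.36 and 0.37. In absolute size the median log2 fold change was 0.11 for the members and 0.103 for all genes.

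**Figure D2:**
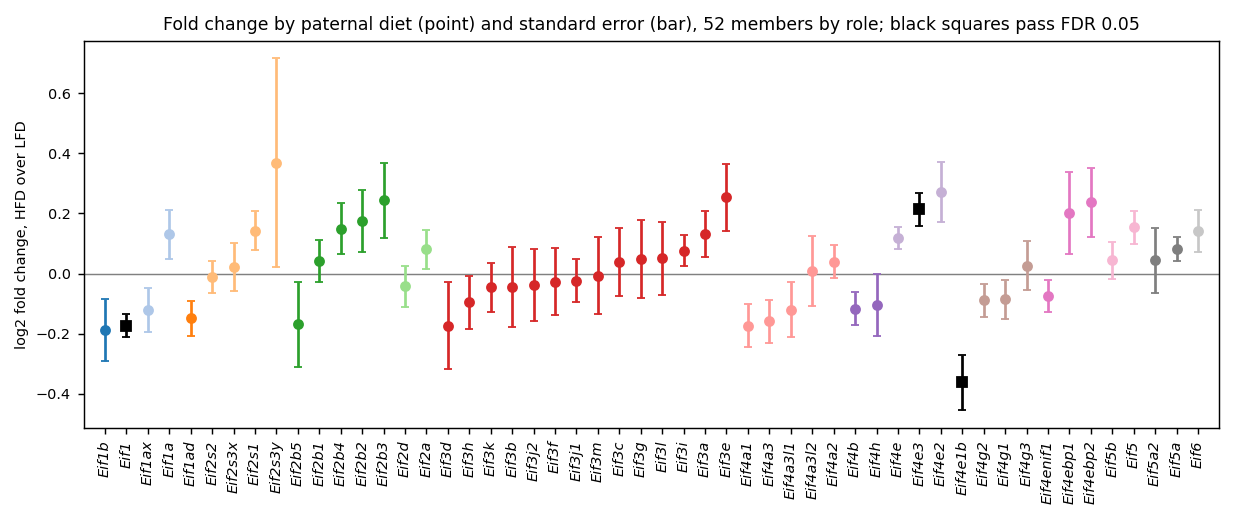
Log2 fold change of HFD over LFD for the 52 tested members, grouped by role (colours), with bars of 1 standard error on each side. Black squares are the 3 members past an FDR of 0.05. Most members lie within 0.2 of 0, and the 3 common eIF4E forms lie above 0 while Eif4e1b lies lowest.

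The cap binding proteins held 2 of the 3 called genes. Eif4e is the main cap binding factor of most cells, Eif4e2 a homologue that represses chosen mRNAs, Eif4e3 a form with an atypical cap pocket, and Eif4e1b a form made mainly in oocytes and early embryos. The 4 genes differ widely in sequence. Over 646 aligned coding bases Eif4e and Eif4e1b were 66.1% identical, with no identical run over 11 bases, and Eif4e and Eif4e3 were 51.5% identical over 604 bases. The stretches of 60 coding bases in which each pair is most alike are shown, to let the forms be compared, from GENCODE M21 transcripts on GRCm38 and written 5′ to 3′ along the mRNA, with bases that differ within the pair in capitals.
Eif4e, coding bases 188 to 247, chr3:138547721-138550288, plus strand, across an intron: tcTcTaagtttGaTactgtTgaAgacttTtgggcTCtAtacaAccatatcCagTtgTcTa
Eif4e1b, coding bases 290 to 349, chr13:54784871-54785503, plus strand, across an intron: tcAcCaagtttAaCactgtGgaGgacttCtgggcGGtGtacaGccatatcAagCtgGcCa
Eif4e, coding bases 298 to 357, chr3:138550905-138550964, plus strand, within 1 exon: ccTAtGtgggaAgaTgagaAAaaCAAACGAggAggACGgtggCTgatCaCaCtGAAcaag
Eif4e3, coding bases 286 to 345, chr6:99639172-99640623, minus strand, across an intron: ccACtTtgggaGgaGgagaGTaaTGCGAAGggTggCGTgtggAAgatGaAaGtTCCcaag
Even there Eif4e1b differed from Eif4e at 15 of 60 bases and Eif4e3 at 26 of 60.

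Eif4e1b (chr13:54783998-54788459, plus strand) had a median of 220.7 CPM in HFD embryos, from 46.02 in the lowest to 589 in the highest. In LFD embryos the median was 287 CPM (69.2 to 894). The ranges overlapped, but just 32 HFD embryos exceeded the median of the LFD group, while 5 were under its lowest value. The log2 fold change was -0.36 ± 0.09 (SE, FDR = 0.0120 by edgeR), so that the fitted level fell by 22.2% in HFD embryos. Without HFD embryos 31 to 70 the log2 fold change was -0.56 (FDR = 5.09e-05). In the 11 ranges of 10 embryo numbers that held both diets, the difference of mean log2 CPM was negative in 10 and ran from -1.26 (numbers 81 to 90) to 0.14 (numbers 51 to 60). The lowest range means were those of HFD embryos 71 to 80 and 81 to 90, at 7.07 and 6.90 log2 CPM.

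Eif4e3 (chr6:99625135-99666771, minus strand) had a median of 165 CPM in HFD (87.5 to 438) and 153 in LFD embryos (71.2 to 259). Of the HFD embryos, 76 exceeded the median of the LFD group and 9 its highest value. The log2 fold change was 0.21 ± 0.06 (SE, FDR = 0.0126 by edgeR). The HFD means were highest in numbers 31 to 40, 41 to 50 and 61 to 70, at 7.71, 7.74 and 7.80 log2 CPM, and 6.99 to 7.51 in the other ranges. Without HFD embryos 31 to 70 the log2 fold change was 0.09 (FDR = 0.637), and with number ranges within a diet as a random effect the call was also lost (0.19, FDR = 0.143). Of its exon bases, 14.8% lie under exons of Gm20696 on the same strand.

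Eif4e itself (chr3:138526179-138559696, plus strand) was the form with the smallest spread between embryos. Its median was 610 CPM in HFD (393 to 1086) and 575 in LFD embryos (284 to 899), and its log2 fold change of 0.12 ± 0.04 (SE) did not pass the threshold (FDR = 0.0622 by edgeR). It passed under 5 of 11 alternative fits. Eif4e2 was the least abundant form, with medians of 19.9 CPM in HFD (5.15 to 114.4) and 17.2 in LFD embryos (0.459 to 48.5), and its log2 fold change was 0.27 ± 0.10 (FDR = 0.147 by edgeR).

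**Figure D3:**
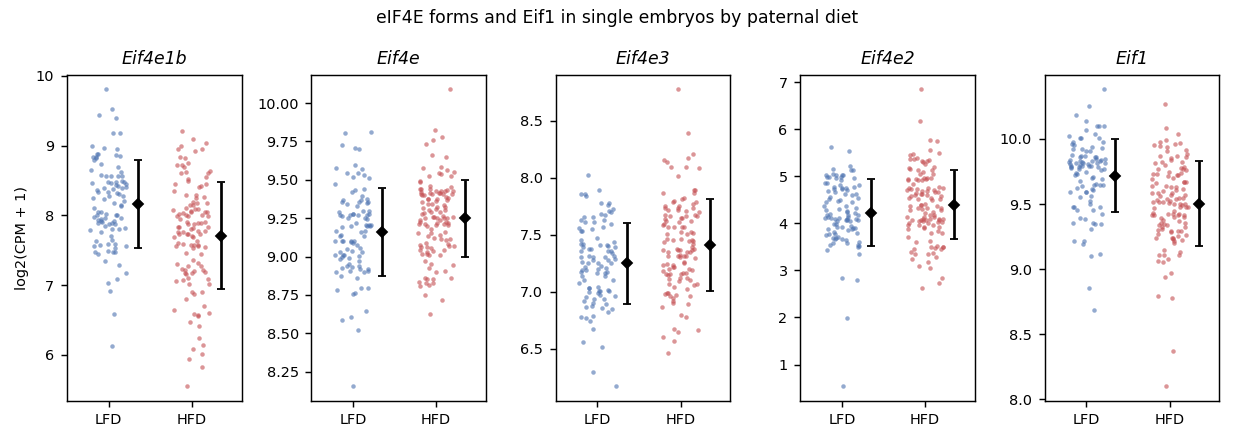
Log2(CPM + 1) of the 4 eIF4E forms and of Eif1 in each embryo by paternal diet, with the mean and SD over embryos as black diamonds and bars. Points overlap widely in every panel. The HFD mean lies lower for Eif4e1b (7.71 against 8.16) and Eif1 (9.504 against 9.719) and higher for Eif4e, Eif4e3 and Eif4e2.

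The balance between the oocyte form and the common forms was expressed as the log2 ratio of Eif4e1b to the sum of Eif4e, Eif4e2 and Eif4e3, each divided by its length. It was -0.91 ± 0.78 (SD) in HFD and -0.34 ± 0.71 in LFD embryos, which differ by -0.58. Per length, Eif4e1b exceeded the common forms together in 15 HFD and 31 LFD embryos. That count depends on the lengths used, as Eif4e was divided by 6008 bases and Eif4e1b by 2255. In CPM the median of Eif4e1b was 220.7 in HFD and 287 in LFD embryos, against 610 and 575 for Eif4e alone. The difference between diets depended little on length, at -0.56 with summed counts not divided. In 92 HFD embryos (75.4%) the ratio was below the LFD median, and in 3 it was below the lowest LFD embryo. The difference was -0.72 without HFD embryos 31 to 70 and -0.54 against Eif4e alone. Since the ratio joins genes that were called, it is given as a description, with no test. The common forms did not move as one between embryos, as Eif4e and Eif4e3 had a Pearson r of -0.11 (rho = -0.09, all embryos) and Eif4e1b had r of -0.23 with Eif4e (rho = -0.24) and 0.21 with Eif4e3 (rho = 0.20). All correlations here are over the same libraries of both diets, each diet centred on its own mean, and the values share depth and normalization.

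**Figure D4:**
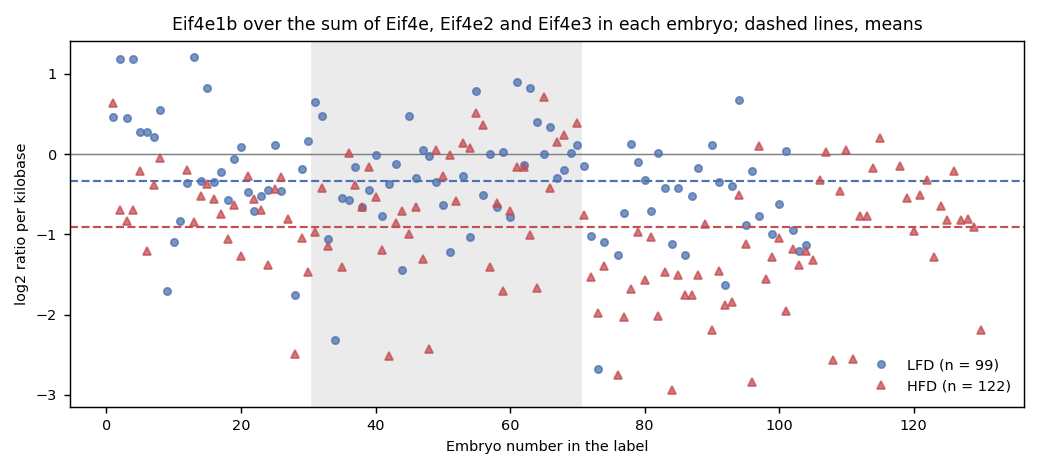
Log2 ratio of Eif4e1b to the sum of Eif4e, Eif4e2 and Eif4e3, per kilobase, against the embryo number of the label, for LFD (blue circles) and HFD embryos (red triangles). Dashed lines are the diet means (-0.34 and -0.91), and the grey band marks numbers 31 to 70. HFD embryos numbered 71 to 100 lie mostly below the HFD mean.

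The proteins that hold eIF4E back did not pass the threshold. Eif4enif1, which carries eIF4E and represses mRNAs in oocytes, had 506 CPM in HFD (78.2 to 825) and 559 in LFD embryos (116 to 824), with a log2 fold change of -0.07 ± 0.05 (SE). Eif4ebp1 and Eif4ebp2, which release eIF4E when mTOR phosphorylates them, had log2 fold changes of 0.20 ± 0.14 and 0.24 ± 0.11 (FDR = 0.562 and 0.344 by edgeR) at far lower levels, with medians over all embryos of 7.76 and 1.85 CPM per kilobase. Of the scaffolds that join the cap to the ribosome, Eif4g2, a form without the eIF4E binding part, was the most abundant with 1170 CPM in HFD (180 to 2153) and 1296 in LFD embryos (258 to 1932). Its log2 fold change was -0.09 ± 0.05. Eif4g1 and Eif4g3 had -0.09 ± 0.07 and 0.03 ± 0.08. The FDR of these 3 scaffolds lay between 0.507 and 0.945.

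Eif1 (chr11:100319885-100322096, plus strand) had the smallest p of all members. Its median was 730 CPM in HFD (274 to 1234) and 883 in LFD embryos (412 to 1328). Just 22 HFD embryos exceeded the median of the LFD group, and 2 were under its lowest value. The log2 fold change was -0.17 ± 0.04 (SE, FDR = 0.00164 by edgeR), so that the fitted level fell by 11.3%. Within number ranges the difference was negative in 10 of 11 and ran from -0.58 to 0.22. Eif1 and Eif4e1b kept their call under all 11 alternative fits, with an FDR of at most 0.0150 and 0.0323. None of those fits took account of the sire. Of the 31-base stretches of Eif1, 23% also occur in transcripts of other genes, where reads can align to several places.

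Eif1b, its near copy on another chromosome (81.1% of coding bases identical), was chosen for mention after its values were seen. It had 63.9 CPM in HFD (11.01 to 219.9) and 79.4 in LFD embryos (21.95 to 373), and a log2 fold change of -0.19 ± 0.10 (FDR = 0.442). Embryos with more Eif1 did not have more Eif1b (r = -0.28, rho = -0.17, all embryos). Of the exon bases of Eif1b, 12.7% lie under exons of D830035M03Rik on the opposite strand.

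eIF1A, which works with eIF1 on the scanning ribosome, is encoded by Eif1ax on the X chromosome and Eif1a on chromosome 18. Eif1a had a median of 84.7 CPM in HFD (10.7 to 191) and 81.4 in LFD embryos (12.4 to 177), with a log2 fold change of 0.13 ± 0.08 (SE, FDR = 0.514 by edgeR). For Eif1ax the medians were 63.6 CPM in HFD (18.8 to 153) and 68.2 in LFD embryos (19.3 to 189), and the log2 fold change was -0.12 ± 0.07 (FDR = 0.493). Eif1a exceeded Eif1ax per length in 183 embryos. Between the pair r was 0.18 (rho = 0.24, all embryos). Eif1ad, a protein that shares a domain with eIF1A and is no copy of it, had 47.2 CPM in HFD (19.04 to 90.8) and 53.9 in LFD embryos (19.06 to 98.7), with a log2 fold change of -0.15 ± 0.06 (FDR = 0.180). Banf1 covers 15.3% of its exon bases on the opposite strand.

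Against all other members, Eif1a and Eif1ax together stood at a log2 ratio of -6.39 ± 0.50 (SD) per kilobase in HFD and -6.44 ± 0.48 in LFD embryos. The difference of 0.05 was small beside the spread, and it turned to -0.02 when Eif1ad was counted with them.

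No further symbol of the table named a copy of eIF1A, but the genome holds such copies under other names. A search of GENCODE M21 coding sequences for genes like Eif1ax (at least 70% identical over 90% of its 432 coding bases) found 16, all with the same coding length and 83.6% to 85.2% identical. The next gene reached 63.2%. All 16 lie on chromosome 12 between positions 87494721 and 88324026 (GRCm38). This search was added after the data had been seen, though it used sequence alone. Eif1ax is shown beside Gm5662, the copy with the highest median count, where the pair is most alike, with differing bases in capitals.
Eif1ax, coding bases 148 to 207, chrX:159377506-159378541, plus strand, across an intron: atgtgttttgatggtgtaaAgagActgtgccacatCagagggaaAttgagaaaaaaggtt
Gm5662, coding bases 148 to 207, chr12:88271782-88271841, minus strand, within 1 exon: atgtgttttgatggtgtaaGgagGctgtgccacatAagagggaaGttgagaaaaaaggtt
The stretch differs at 4 of 60 bases. A median of 86.4% of a copy's 31-base stretches occurs in another copy, in Eif1a or in Eif1ax (17.8% to 100%). Reads there can be dropped or split, so single copies are uncertain. Of the 31-base stretches of Eif1a, 2.92% occur in the copy Gm5039.

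Per length, these copies outweighed Eif1a and Eif1ax in every embryo. Their summed level had a median of 2500 CPM per kilobase in HFD (789 to 5543) and 2283 in LFD embryos (742 to 5781), against 2778 and 2901 for the 54 initiation factor genes. These sums are not like for like. Some copies, such as Gm2022 (chr12:87895370-87895804), are annotated with little beyond their 432 coding bases. By contrast Eif4e, with 651 coding bases, was divided by 6008. The log2 ratio of copies to Eif1a and Eif1ax was 6.25 ± 0.72 (SD) in HFD and 6.11 ± 0.68 in LFD embryos. This ratio also depends on the lengths used, as Eif1a and Eif1ax were divided by 4168 and 5266 bases. Without division, the copies summed to a median of 1890 CPM in HFD and 1731 in LFD embryos. Eif1a alone had 84.7 and 81.4 CPM there, and Eif1ax 63.6 and 68.2. All 16 had a count in every embryo. Gm5662 had a median of 301 CPM in HFD (576 in the highest) and 268 in LFD embryos (81.3 to 634).

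By paternal diet none of the 16 was called (edgeR, lowest FDR 0.0858), against 2.15% of all genes tested. An unadjusted p under 0.05 was reached by 11 of them and by 13.1% of all genes. Every log2 fold change was above 0, from 0.09 to 0.30 with a median of 0.19, but the copies share reads and moved together (median r between copies 0.59 over 120 pairs), so this is not 16 separate observations. Under the 11 alternative fits their median lay between 0.16 and 0.23, with all 16 above 0 in each. From 0 to 3 of them were called there. It was 3 without a filter on low counts, where 15.4% of all genes were called. It was 2 without the libraries of few genes (3.88% of all genes) and 1 with number ranges as a random effect (2.66%). With the copies counted as eIF1A genes, the log2 ratio of eIF1A type to other factors was -0.12 ± 0.50 (SD) in HFD and -0.30 ± 0.49 in LFD embryos, 0.18 apart.

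The carriers of the initiator tRNA and their exchange factor showed no called gene. Of the eIF2 subunits, Eif2s1, the one phosphorylated under stress, had 86.9 CPM in HFD (28.5 to 182) and 81.6 in LFD embryos (19.1 to 164), with a log2 fold change of 0.14 ± 0.07 (SE, FDR = 0.306 by edgeR). Eif2s2, the most abundant subunit, had -0.01 ± 0.05. The gamma subunit is encoded on both sex chromosomes. Eif2s3x had 39.8 CPM in HFD (4.69 to 100.1) and 41.8 in LFD embryos (7.15 to 76.2), a log2 fold change of 0.02 ± 0.08. Eif2s3y had a count in 79 HFD and 52 LFD embryos and a log2 fold change of 0.37 ± 0.35 (FDR = 0.723), which was 0.04 with the summed level of Y-linked genes as a covariate and 0.93 to 0.94 in the limma-voom fits. The summed Y-linked level was itself 0.78 higher on the log2 scale in HFD embryos, and its part in the other values was not tested beyond that covariate, which left the 3 calls in place. Of eIF2B, Eif2b1 had 408 CPM in HFD (202 to 1010) and 402 in LFD embryos (199 to 1032), and Eif2b3, with the smallest p of the complex, had a log2 fold change of 0.24 ± 0.13 (FDR = 0.391). Eif2a, an alternative carrier, had 0.08 ± 0.06.

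None of the 14 eIF3 genes was called, and their log2 fold changes ran from -0.17 to 0.25 with 6 above 0 and 8 below. Eif3e had the smallest p, with 22.3 CPM in HFD (0 to 65.8) and 21.4 in LFD embryos (3.86 to 55.97) and a log2 fold change of 0.25 ± 0.11 (SE, FDR = 0.273 by edgeR). Eif3i, the most abundant per length, had 0.08 ± 0.05. Across embryos the eIF3 genes tended to move together, with a median r of 0.25 over 91 pairs, against 0.10 over the 1326 pairs of all members. Their pairs ran from -0.35 to 0.65, and 73 of the 91 were above 0. The eIF2B genes did not show this, with a median r of 0.07 over 10 pairs. Some eIF3 genes share sequence with neighbours or copies: 43.3% of the exon bases of Eif3d lie under Gm17638 on the opposite strand, and 94% of the 31-base stretches of Eif3j2 occur in Eif3j1.

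Per length the highest eIF4A gene was Eif4a3l1, which with Eif4a3l2 is a near copy of Eif4a3, a helicase of the exon junction complex. Eif4a3l1 had 192 CPM in HFD (24.6 to 599) and 224.6 in LFD embryos (56.3 to 535), with a log2 fold change of -0.12 ± 0.09 (SE, FDR = 0.629 by edgeR). Its coding sequence was 96.2% identical to Eif4a3 and 98.5% to Eif4a3l2, and 54.5% of its 31-base stretches occur in Eif4a3l2, so their reads may be split. Counted per length, the 2 copies exceeded Eif4a3 in 213 embryos. Between the copies r was 0.73 (rho = 0.73, all embryos), and between Eif4a3 and Eif4a3l1 it was 0.08 (rho = -0.00407). Eif4a1, the helicase of the cap complex, had 445 CPM in HFD (82.3 to 919) and 491 in LFD embryos (169 to 996), with a log2 fold change of -0.17 ± 0.07 (FDR = 0.230). Without HFD embryos 31 to 70 it was 0.05. Eif4b, its cofactor, had -0.12 ± 0.06 (FDR = 0.351).

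Eif5, which makes eIF2 hydrolyse its GTP at the start codon, had 705 CPM in HFD (404 to 1490) and 643 in LFD embryos (387 to 1867). Its log2 fold change of 0.15 ± 0.06 (SE) had an FDR of 0.144 by edgeR and passed under 4 of 11 alternatives. Eif5a had 1554 CPM in HFD (416 to 2605) and 1526 in LFD embryos (447 to 2556), with 0.08 ± 0.04 (FDR = 0.340). For Eif6, which keeps the large subunit from joining too soon, the log2 fold change was 0.14 ± 0.07 (FDR = 0.355).

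To see how the members followed the passage from maternal to embryonic transcripts, each was set against the summed levels of 13 maternal and 12 2-cell stage transcripts over all embryos. Eif5 had the lowest r with the maternal level, -0.68, followed by Eif2b4 (-0.66) and Eif3j1 (-0.64). Eif1b had the highest r with the maternal level, 0.64. Eif4e1b lay on the maternal side, with r of 0.42 against the maternal and 0.11 against the 2-cell level, while Eif4e had -0.19 and 0.16. For Eif1a the values were -0.45 and -0.32. Eif4a3l1 and Eif4a3l2 were high on both, with 0.40 and 0.53 against the maternal level and 0.50 each against the 2-cell level. The 16 copies of eIF1A on chromosome 12 had r from 0.19 to 0.70 with the 2-cell level, and 0.67 for their summed level. For the maternal and the 2-cell level taken singly no r over all genes is given, so how unusual these values are is not known. The log2 ratio of 2-cell to maternal levels had r from -0.52 (Eif1b) to 0.50 (Eif5) among members, with a median of 0.05. Over all genes tested outside both marker lists the median was -0.07 and the central 90% lay between -0.34 and 0.30. Eif4e1b, with -0.24, lay inside that span. The number of genes with a count moved with some members too, with r of -0.58 for Eif5 and 0.50 for Eif4b, and its part in these values was not tested. With that ratio as a covariate the same 3 members were called.

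**Figure D5:**
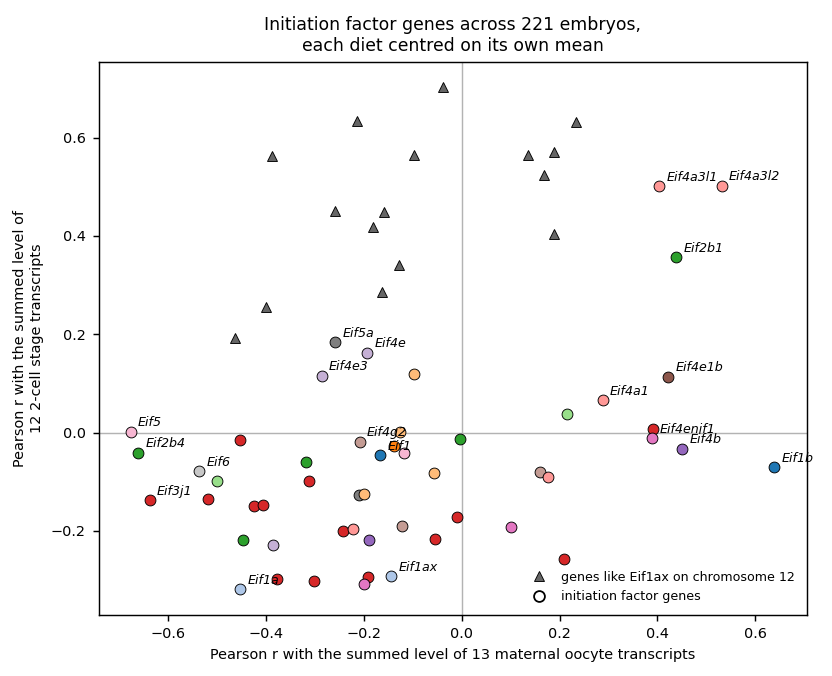
Pearson r of each member (circles, coloured by role as in the plot of levels) and of 16 genes like Eif1ax on chromosome 12 (triangles) with the summed level of 13 maternal oocyte transcripts (horizontal) and of 12 2-cell stage transcripts (vertical), over all embryos. The triangles lie between 0.19 and 0.70 on the vertical axis, and Eif4e1b lies to the right of the common forms Eif4e and Eif4e3.

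By the measure of likeness fixed for naming, Pearson r of log2 CPM over all embryos, the genes outside the family most like Eif4e1b were Zbed3 (r = 0.66, rho = 0.63), Ddx19a (0.63, rho = 0.60) and Atp6v0d1 (0.59, rho = 0.57). None of them was called by diet, and their log2 fold changes were -0.23, -0.21 and -0.06. Among those most like Eif1a were Gabpa (r = 0.69, rho = 0.63) and Arf4 (0.68, rho = 0.61). Within the family the nearest to Eif4e1b was Eif2b1 (r = 0.40) and the nearest to Eif1a was Eif3c (r = 0.59).

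Genes that work beside the initiation factors were read from 6 lists: elongation, termination, poly(A) binding, eIF2 kinases and phosphatase, mTOR and eIF4E signalling, and helicases. Of 41 genes tested in them 2 were called, against 2.15% of all genes tested, and both were in the poly(A) list and higher in HFD embryos. Paip2b, which takes poly(A) binding protein off the mRNA, had 120 CPM in HFD (39.6 to 314) and 103.7 in LFD embryos (52.5 to 248), with a log2 fold change of 0.25 ± 0.07 (SE, FDR = 0.0223 by edgeR). Paip1, which favours the link of poly(A) binding protein with eIF4A and was named after its values were seen, had 868 CPM in HFD (284 to 4374) and 779 in LFD embryos (36.7 to 1837), with 0.26 ± 0.07 (FDR = 0.0333). Of the 11 alternative fits 8 called Paip2b and 5 called Paip1. Without HFD embryos 31 to 70 neither was called (0.08 and 0.12, FDR = 0.784 and 0.658). The 5 tested genes that phosphorylate eIF2 or reverse it all had log2 fold changes below 0, with a median of -0.14, and none passed. The smallest p there belonged to Ppp1r15b, a regulatory subunit of the eIF2 phosphatase (-0.14 ± 0.08, FDR = 0.464). In the other lists the smallest p belonged to Eef2k, the kinase of elongation factor 2 (-0.19 ± 0.09, FDR = 0.337), Etf1, which reads stop codons (0.10 ± 0.05, FDR = 0.432), Rps6kb1, a kinase downstream of mTOR (0.13 ± 0.06, FDR = 0.340), and Dhx33, a helicase (-0.17 ± 0.10, FDR = 0.451).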

How the data were processed

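Single early 2-cell embryos were sequenced by Smart-seq2. The authors deposited whole-number counts per gene, and per the file header they were made with featureCounts 2.0.3 and Ensembl 102, with strand setting 2, for a library kit that does not mark strand. The submitters' processing notes name Trim Galore 0.6.6, STAR 2.7.10a and MultiQC 1.11, and the genome was GRCm38 with the mitochondrial sequence replaced. No column of per-sample values was left unused. Groups came from the sample labels: 122 HFD and 99 LFD embryos, 221 in all.

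The deposited counts of 55291 genes were tested between diets with edgeR 4.0.16 (R 4.3.3), using filterByExpr, TMM and the quasi-likelihood test, and Benjamini-Hochberg FDR over the 14820 genes kept. Standard errors were derived from the fold change and F statistic. Levels were counts per 1000000 counts of the library, with 1 added before log2 of single genes, and were divided by exon length only to compare genes. Ratios were taken on counts per kilobase with 0.1 added to both sides (none for eIF1A type to other factors), and 0.5 CPM was added to summed marker levels. Named genes were the members called, the eIF1A type and Eif1ad, the eIF4E forms, regulators and eIF4G, Eif2s3x and Eif2s3y, the members not tested, in each other role the member highest per kilobase and that with the smallest p, the 3 genes most like Eif1a and Eif4e1b, and the smallest p of each translation list. Exceptions are given where they occur. One gene that the rule names is not reported here. The members and lists were chosen with earlier results of these data known.

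Alternatives used DESeq2 1.42.0, limma 3.58.1 (voom, with and without random effects), no filter, 3 covariates and libraries left out. Tables and figures were made in Python 3.11.15 with numpy 2.4.6, pandas 2.3.3 and matplotlib 3.10.9. Coding sequences from GENCODE M21 were aligned with Biopython 1.88. The edgeR step was tested on counts simulated independently for each embryo, without sires or dates, so that test does not cover likeness between embryos of a sire. The tests took each embryo as a replicate, although the diet was given to the sires, which could not be modelled. The p-values therefore measure the spread between embryos only. Depth was from 1937251 to 17246791 counts, and reads are not independent molecules.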

Additional observations from a re-analysis of the deposited data

How the results depend on the processing

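Eif1 and Eif4e1b kept direction and call under all 11 alternative fits, the last of which (number ranges within a diet as a random effect) was chosen after seeing the data. None of the fits took account of the sire. That last fit used the same consensus correlation, 0.04202, for all genes. In ranges with both diets, the HFD means of Eif4e1b ran from 6.90 (numbers 81 to 90) to 8.55 log2 CPM (numbers 61 to 70). The count of called members, 3, was 5 without a filter on low counts, 5 with a replicate block (embryo number as a random effect) and 6 with ranges of 10 embryo numbers as a random effect, through Eif4e, Eif5 and, in the last, Eif4a1. It was 2 without HFD embryos 31 to 70 and 2 with ranges within a diet, where Eif4e3 was lost. All genes called were 343 (2.31%) with the block and 394 (2.66%) with ranges. The numbers do not pair the embryos: over 94 numbers in both diets the median r of same-numbered embryos was 0.0112, 20 pairs passed 0.1 and 1 HFD embryo was closest to its own number. The block's consensus correlation was 0.01522. Called genes in the other translation lists, 2, were 1 with the macrophage or the stage covariate and 0 without HFD embryos 31 to 70 or with ranges within a diet. The members' median log2 fold change turned to -0.00203 (limma-voom), -0.00225 (replicate block), -0.000365 (ranges), -0.000396 (stage) and -0.0011 (ranges within a diet). The eIF1A ratio turned to -0.018 with Eif1ad. Single genes also changed sign, none of them called in a fit where it did: Eif2s3x (-0.0363 by limma-voom, -0.037 with the block, -0.0506 with ranges, -0.0427 with ranges within a diet), Eif2s2 (0.00758 with macrophage level, 0.0227 without 13 libraries of few genes) and Eif4g3 (-0.016 and -0.00718 in those fits). Without HFD embryos 31 to 70 the sign changed for Eif4a1 (0.0481), Eif4a3l1 (0.0398), Eif4b (0.00286), Eif4enif1 (0.0349) and Rps6kb1 (-0.00877). The causes were not tested. Over all genes 318 were called, against 7030 of 45512 without the filter, 579 without the 13 libraries, 175 without HFD embryos 31 to 70 and 86 with ranges within a diet. The limma-voom fits moved the median of all genes by under 0.1. By sequence, 12 members shared over 20% of their 31-base stretches with transcripts of other genes, which limits their counts.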
